A study of Mus musculus with 8 samples.

Results

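The cells described here are proliferating hair matrix cells of mouse dorsal skin, picked out of scRNAseq libraries by the genes they expressed. A barcode was a member when it held 500 to 4000 genes, at most 20000 UMIs (unique molecular identifiers, which count captured mRNA molecules) and at most 10% mitochondrial UMIs, together with at least 1 UMI for at least 3 of 5 cycling genes (Mki67, Top2a, Pclaf, Hist1h1b, Stmn1) and for at least 2 of 5 matrix genes (Lef1, Msx2, Krt35, Cldn10, Dlx3). Barcodes with at least 2 UMIs of 3 or more of the inner root sheath genes Krt25, Krt27, Krt28, Krt71, Krt73 and Tchh were left out, as were those with any Ptprc UMI or with 1% or more of UMIs from Col1a1, Col1a2 and Col3a1. This rule found 119 cells among the 11118 barcodes that met the limits on genes, UMIs and mitochondrial share, or 1.07%. The files held 26231 barcodes in all.

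The study asked how PBMCsec, the secretome of irradiated human peripheral blood mononuclear cells, acts on mouse skin. All libraries came from dorsal skin of female BALB/c mice aged 14 to 16 weeks. In 4 of them the skin had been injected with PBMCsec and in 4 with vehicle. The deposited design text calls the injection subcutaneous, whereas the study describes an intradermal route into scars, and each library is named here by its group and number. The methods describe healed excision wounds, more than one control solution and end point, but the labels do not say which library had which, so libraries were compared by treatment alone. Libraries held between 14753926 and 37880651 UMIs.

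The hair matrix is the pool of dividing epithelial cells at the base of a growing hair follicle (HF), wrapped around the dermal papilla. Its cells divide quickly, move upwards and differentiate into the concentric layers of the hair shaft and of the inner root sheath, under the direction of Wnt, BMP, Notch and Sonic hedgehog signals. Lef1 mediates Wnt signals, Msx2 and Dlx3 are homeobox transcription factors needed for hair formation, and Krt35 is an early keratin of the hair shaft.

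The label was checked against other genes of the follicle. Of the matrix and shaft genes that the rule did not use, Hoxc13, the homeobox activator of hair keratin genes, had a UMI in 75 members (63.0%) and Msx1, a homeobox gene related to Msx2, in 56 (47.1%). In immune cells, which should lack both and had a median of 4097 UMIs against 11475 in members, the shares were 1.18% and 0.269%. Shh, the ligand made by part of the matrix, had a UMI in 9 members (7.56%) and in 0% of immune cells, and Foxn1, a regulator of shaft differentiation, in 7 (5.88%) and in 0.269%. After each cell was thinned to 3000 UMIs, Shh was found in 5.26% of members and Foxn1 in 1.75%, and neither in immune cells. Among keratins of the differentiated shaft, Krt86 was found in 15 members (12.6%, against 0.161% of immune cells), Krt31 was counted 3 times over all members, and Krt33b, Krt34 and Krt84 were at 0. The inner root sheath keratin Krt25 had a UMI in 93 members (78.2%), so many of the cells lay near the border that the rule draws towards that layer. Of its other keratins, Krt28 and Krt27 were found in 81 and 71 members, Krt71 in 20 (16.8%, against 4.51% of immune cells, and after thinning 5.26% against 2.18%) and Krt73 in 1. In what follows the cells are therefore described as cycling cells with matrix genes, most of which also held a sheath keratin.

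The counts of detected genes that chose the members are given only to show where the limits fell, and no conclusion is drawn from them. Genes of the rule stayed in the fit between treatments described below, so its counts of genes include them. Of the 119 members, 51 expressed 3 cycling genes, 38 expressed 4 and 30 expressed all 5. Of the matrix genes, 27 members expressed 2, 33 expressed 3, 34 expressed 4 and 25 expressed all 5, and 8 members stood at the lowest allowed number of both. Just outside the rule were 68 cells with 2 cycling genes, 83 with 1 matrix gene and 110 that met both requirements but were left out for their inner root sheath genes. Inside it, 60 members had 2 UMIs or more of 2 inner root sheath genes, 40 of 1 such gene and 19 of none. Together the upper limits on genes and UMIs left out 213 further cells that met the marker requirements, and the mitochondrial limit left out 177. The largest member had 3997 genes and the smallest cell above the upper limit 4003, while the highest mitochondrial share was 9.91% inside and the lowest 10.2% outside.

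Members held more UMIs than the average cell, with a median of 11475 UMIs (range 1186 to 18605) and 3472 genes against 7434 UMIs and 2586 genes over all cells that passed. The rule asks for UMIs of several genes and so favours deep barcodes. Inner root sheath cells, described below, had a median of 12826 UMIs. Non-cycling matrix-marker cells and other cycling keratinocytes, also described below, had 9889 and 9894.5. Their median mitochondrial share was 5.71%. All but 1 member had a UMI of at least one of the epithelial genes Krt5, Krt14 and Epcam. One member, in library vehicle 4, held 5248 UMIs of the adult beta globin gene Hbb-bs among 15812, while no other member had more than 3. No doublet caller was used, and no barcode was shared between members, although 1 member's barcode also occurred in another library.

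Members were found in 7 of 8 libraries. PBMCsec 1 to 4 held 5, 2, 17 and 30 members, or 0.463%, 0.378%, 0.671% and 1.88% of the cells that passed. Vehicle 1 to 4 held 0, 2, 50 and 13, or 0%, 0.489%, 1.72% and 0.745%, and the 0 of 318 cells in vehicle 1 allow a share of up to 0.943% by the limit of 3 counts, while the exact 95% interval reaches 1.15%. PBMCsec 4 and vehicle 3 were the highest of their groups and the groups overlapped. Without the upper limits on genes and UMIs, shares were 0.523%, 0.433%, 2.44% and 3.47% in PBMCsec 1 to 4. In vehicle 1 to 4 they were then 0.597%, 1.47%, 3.02% and 2.09%, and vehicle 1 held 4 such cells. PBMCsec libraries had a mean share of 0.847% ± 0.696 (SD, n = 4). The vehicle mean was 0.739% ± 0.725 (SD, n = 4), and the difference of 0.108 percentage points did not exceed the spread between libraries (exact two-sided permutation test, p = 0.80, where 0.0286 is the smallest p that 70 labellings allow). The sign of this difference was negative under a mitochondrial limit of 5%, without an upper limit on genes and UMIs, and without PBMCsec 4 (-0.235 points) or vehicle 1 (-0.139 points), and without vehicle 3 it was 0.435 points. A share of cells does not tell a change in these cells from a change in all others.

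**Figure D1:**
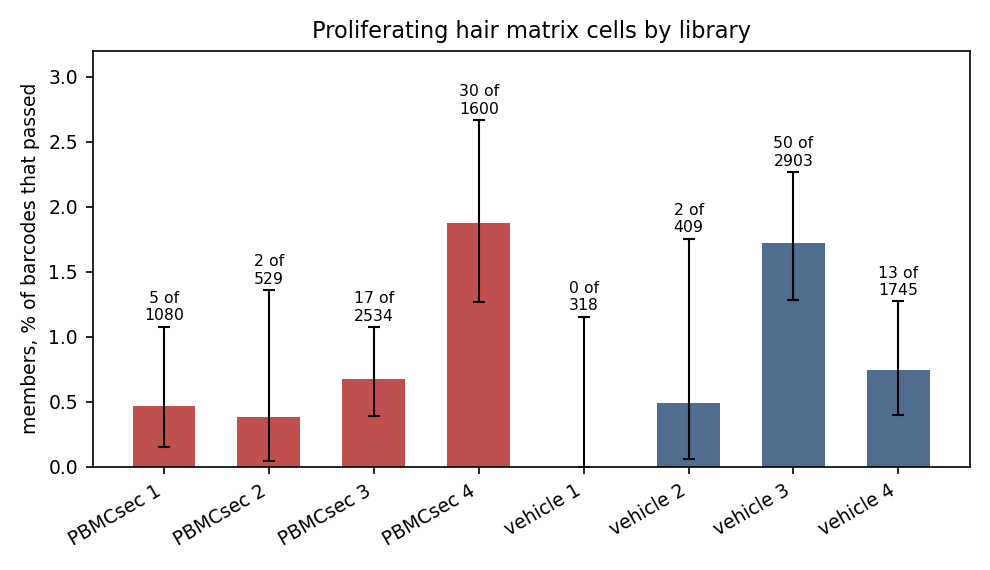
Bars show the share of proliferating hair matrix cells among barcodes that met the limits (y axis, percent) in each library (x axis), with exact 95% binomial intervals, which cover counting error only, and the counts above them. Libraries 3 and 4 of both groups held 110 of 119 members, and the groups overlapped.

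Libraries numbered 3 and 4 held 92.4% of the members and 79.0% of all cells that passed. Only these 4 had at least 10 members, so values by library are given for them, always in the order PBMCsec 3, PBMCsec 4, vehicle 3 and vehicle 4. Levels are CPM, the UMIs of a gene per 1000000 UMIs summed over a library's members. For comparison, 3 further groups of cells were picked by the same limits and genes: 365 non-cycling matrix-marker cells with fewer than 3 cycling genes, 394 other cycling keratinocytes (KCs) with fewer than 2 matrix genes, and 298 inner root sheath cells. Because these groups were defined on expression in the same cells, differences between them are described without a test. As a measure of free RNA, shares of cells with a UMI are set beside those in 1861 immune cells with at least 2 Ptprc UMIs, whose median depth was 4097 UMIs, and where noted each cell was thinned to 3000 UMIs, which left out 5 members and 575 immune cells as too shallow.

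Among the matrix genes of the rule, Lef1 stood at 364, 271, 226 and 266 CPM and Msx2 at 123, 209, 193 and 175 CPM. Cldn10, which encodes a tight junction claudin, stood at 297, 362, 250 and 224 CPM, and Dlx3 at 312, 165, 193 and 266 CPM. Krt35 varied more among the libraries than these genes did, at 1378, 480, 348 and 56.1 CPM. Krt35 was found in 46 members (38.7%), and its library values rest on few cells. In PBMCsec 3, 2 cells held 112 and 93 of 269 UMIs, and in vehicle 3, 1 cell held 94 of 188. Those 46 cells made up 10 of 17 members in PBMCsec 3, 13 of 30 in PBMCsec 4, 20 of 50 in vehicle 3, 2 of 13 in vehicle 4 and 1 in vehicle 2. Krt35 lies at chr11:100092193-100096241 (mm10, minus strand) among the type I keratin genes. In the non-cycling matrix-marker cells it reached 1110 CPM over all cells, above the 492 CPM of members, and it was higher there in 4 of 4 libraries.

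Cycling genes of the rule were also compared by library. Mki67, a chromosome coat protein of dividing cells, stood at 635, 444, 631 and 484 CPM, Top2a, the topoisomerase that untangles replicated DNA, at 415, 380, 291 and 280 CPM. Pclaf, a partner of the replication clamp PCNA, stood at 184, 374, 367 and 294 CPM and the microtubule regulator Stmn1 at 896, 842, 944 and 848 CPM. Hist1h1b, a linker histone gene expressed with DNA replication, was the most uneven, at 143, 64.7, 387 and 77.1 CPM, and 209 of its 300 UMIs came from vehicle 3.

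Dividing cells switch on genes of DNA synthesis first and genes of mitosis later, and 2 lists of genes outside the rule were used to place the members in this order. The 47 S-phase genes made up 42.6, 31.8, 44.9 and 36.0 of 10000 UMIs and the 53 G2/M genes 53.1, 67.8, 59.9 and 49.3. In non-cycling matrix-marker cells the same lists were at 9.83 and 11.8 of 10000 UMIs, so members exceeded them on both. Other cycling KCs had 26.7 for S phase and 76.5 for G2/M, and inner root sheath cells 20.8 and 37.1. Members thus had the highest S-phase level of the 4 groups, while their G2/M level was below that of other cycling KCs. Every gene of both lists had at least 1 UMI in members.

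The 3 most abundant S-phase genes were Nasp, a histone chaperone, Dut, which clears dUTP, and Rrm1, a subunit of ribonucleotide reductase. Nasp stood at 338, 262, 372 and 238 CPM, Dut at 220, 265, 305 and 365 CPM and Rrm1 at 174, 109, 180 and 175 CPM. All helicase subunits from Mcm2 to Mcm7 were between 99.3 CPM (Mcm4) and 149 CPM (Mcm7) over all members, and between 17.6 CPM (Mcm5) and 41.9 CPM (Mcm7) in non-cycling matrix-marker cells. The leading G2/M genes were Hmgb2, a chromatin protein, Anp32e, a histone chaperone, and Tmpo, which encodes lamina-associated proteins. Hmgb2 stood at 1132, 1571, 1309 and 1009 CPM, Anp32e at 323, 335, 415 and 252 CPM and Tmpo at 302, 230, 311 and 231 CPM. Of 20 replication-dependent histone genes besides Hist1h1b, 18 were detected, led by Hist1h1e at 92.2, 73.6, 174 and 105 CPM, then Hist1h1c (58.9 CPM over all members) and Hist1h1d (53.5 CPM).

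Within members the cell cycle lists spread over a wide range. After thinning to 3000 UMIs, 114 members had a median of 10 S-phase UMIs (0 to 40) and 15 G2/M UMIs (2 to 77). G2/M UMIs outnumbered S-phase UMIs in 72 cells, the reverse held in 37 and 5 cells were equal, but 36 cells lay within 5 UMIs of equality, so no sharp classes were drawn. Cells with more G2/M than S-phase UMIs were 6 of 15 in PBMCsec 3, 26 of 30 in PBMCsec 4, 28 of 48 in vehicle 3 and 7 of 12 in vehicle 4. PBMCsec 3 and PBMCsec 4 were the lowest and the highest of these, so the 2 libraries of 1 treatment differed more than the treatments did.

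**Figure D2:**
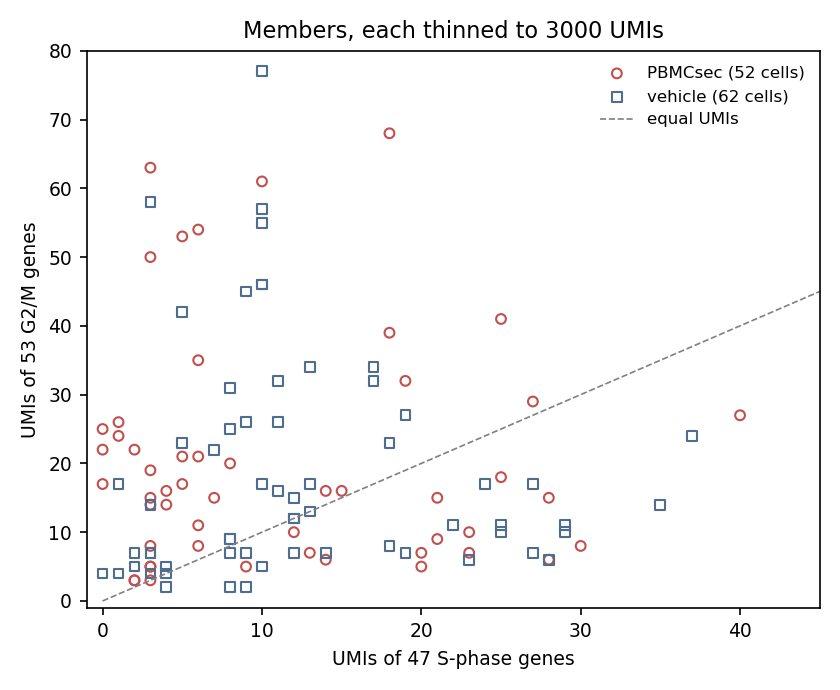
Each point is 1 of 114 members thinned to 3000 UMIs, with its UMIs of 47 S-phase genes (x axis) and of 53 G2/M genes (y axis). Circles are PBMCsec and squares vehicle cells, the dashed line marks equal UMIs, and 72 cells lie above it.

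Promoters of cell cycle genes carry known sequence elements, and RefSeq promoter sequences of GRCm38.p6 were searched for these in the 250 bases before the transcription start. The cell cycle homology element was searched as TTTGAA and the E2F site as TTTGGCGC or TTTCGCGC, each on both strands. The first letters were found in 37.3% of 51 promoters of G2/M genes (46 genes matched), in 15.4% of 39 promoters of S-phase genes (35 genes matched) and in 16.0% of all 32851 promoters. For the second these shares were 3.92%, 15.4% and 0.654%. Matches are descriptions of letters and not of factor binding, and TTTGAA was also found in 50.0% of 20 promoters of hair shaft genes. The stretches shown belong to 2 cycling genes of the rule, an abundant G2/M gene (at 1 of its 2 RefSeq starts, which both lie inside the gene's span in GENCODE) and a pair of S-phase genes that members expressed. Capitals mark the matches, overlapping matches of the E2F letters are merged, and each stretch is written 5′ to 3′ on the strand of its gene.
Mki67 (chr7:135716452-135716515, minus strand): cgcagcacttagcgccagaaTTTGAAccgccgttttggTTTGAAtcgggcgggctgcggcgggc
Top2a (chr11:99024190-99024388, minus strand): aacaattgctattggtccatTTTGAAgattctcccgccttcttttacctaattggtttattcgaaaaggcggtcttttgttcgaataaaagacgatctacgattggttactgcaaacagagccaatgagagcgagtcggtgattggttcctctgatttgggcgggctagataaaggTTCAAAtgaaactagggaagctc
Tmpo (chr10:91170553-91170598, minus strand): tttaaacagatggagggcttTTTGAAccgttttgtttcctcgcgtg
Mcm5 (chr8:75109336-75109387, plus strand): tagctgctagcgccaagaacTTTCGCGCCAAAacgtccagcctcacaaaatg
Mcm6 (chr1:128359725-128359835, minus strand): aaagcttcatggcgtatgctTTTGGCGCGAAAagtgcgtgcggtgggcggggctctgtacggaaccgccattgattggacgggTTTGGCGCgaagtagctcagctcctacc

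In Mki67 and Top2a the TTTGAA letters occurred 2 times within the 250 bases, in Tmpo once. The E2F letters occurred 2 times in Mcm5, where both matches overlap, and 3 times in Mcm6. Over all members, Mki67 was at 602 CPM, Top2a at 354, Tmpo at 283, Mcm5 at 120 and Mcm6 at 100 CPM, against 16.7, 11.5, 87.5, 17.6 and 18.2 CPM in the non-cycling matrix-marker cells. Mki67 and Top2a helped to choose both groups of cells, so their gaps follow from the rule and nothing is concluded from them. Tmpo, Mcm5 and Mcm6 were outside the rule, but the groups were still split by cycling genes.

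Genes of ribosome production and growth were also abundant. The growth list, with 16 genes, made up 88.6, 74.8, 87.4 and 75.2 of 10000 UMIs, against 44.6 in non-cycling matrix-marker cells, 39.8 in other cycling KCs and 65.7 in inner root sheath cells. Npm1 and Ncl, both nucleolar proteins of ribosome assembly, stood at 2740, 2542, 2969 and 2601 CPM and at 1634, 1227, 1590 and 988 CPM. Ran, the GTPase of nuclear transport, stood at 999, 1095, 1244 and 1234 CPM. Npm1 and Ran were higher in members than in each of the 3 other groups in 4 of 4 libraries. Of the Myc genes, Mycn was at 60.5 CPM over all members and 5.16 CPM in other cycling KCs, while Myc was at 10.1 and 58.3 CPM. Ccnd2, a cyclin of the G1 phase, reached 1326, 597, 840 and 862 CPM and exceeded non-cycling matrix-marker cells and other cycling KCs in 4 of 4 libraries. Inhibitors of the cycle and p53 targets made up 6.72 of 10000 UMIs in members, 8.34 in non-cycling matrix-marker cells, 6.53 in other cycling KCs and 6.46 in inner root sheath cells, with Phlda3 (160 CPM), Bax (135 CPM) and Cdkn1b (105 CPM) as its most abundant genes.

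Transcription factors of the matrix were spread unevenly among the 4 groups of cells. Throughout, listed genes other than the 3 most abundant of a list were picked with their values known. Hoxc13 (chr15:102921103-102928814, mm10, plus strand) stood at 394, 350, 241 and 210 CPM in members and had a UMI in 1.18% of immune cells. It was higher in non-cycling matrix-marker cells in 4 of 4 libraries (488 CPM over all of them) and lower in other cycling KCs (30.2 CPM) and inner root sheath cells (129 CPM) in 4 of 4. Msx1 had 123, 165, 115 and 98.1 CPM in members and was higher there than in each other group in 4 of 4 libraries, with 95.3, 6.19 and 78.2 CPM over the non-cycling, other cycling and inner root sheath cells. Dlx4, a further distal-less homeobox gene, stood at 113, 76.5, 51.8 and 70.1 CPM and was likewise highest in members in 4 of 4 libraries, as was Dlx2 at 69.0 CPM over all members. Cux1 and Nfib, the most abundant factors of the list, stood at 420, 365, 572 and 407 CPM and at 538, 306, 546 and 386 CPM. Gata3, a factor of the inner root sheath, was at 127 CPM over all members and 460 CPM in inner root sheath cells.

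Signalling genes followed. Wnt5a, a non-canonical Wnt ligand, stood at 97.3, 224, 79.6 and 224 CPM, and higher than in non-cycling matrix-marker cells in 3 of 4 libraries. Fzd10, a Wnt receptor, was at 154, 100, 98.1 and 105 CPM and exceeded non-cycling matrix-marker cells in 4 of 4. Ctnnb1, which encodes β-catenin, was found in 115 members at 594, 536, 457 and 694 CPM, and the Wnt target Axin2 in 31 members (26.1%, against 7.74% of immune cells). The BMP-induced inhibitors of differentiation Id1, Id2 and Id3 were at 191, 188 and 243 CPM over all members. Of the Notch pathway, the receptor gene Notch1 stood at 574, 347, 230 and 189 CPM, the ligand gene Jag1 at 338, 282, 185 and 168 CPM and the target Hes1 at 195, 165, 117 and 63.1 CPM, while Hes5 and the Wnt inhibitor Dkk4 were at 0 UMIs. Ptch1 and Gli1, targets of hedgehog signals, were detected in 61 and 28 members (after thinning, 22.8% and 14.9% of members against 4.51% and 0.156% of immune cells).

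Further genes stood out after their values were seen. Fabp5, a fatty acid binding protein, was at 4563, 3619, 3621 and 4472 CPM in members, found in 97.5% of them and in 23.3% of immune cells. It was above the non-cycling matrix-marker cells (1672 CPM) and other cycling KCs (530 CPM) in 4 of 4 libraries and above inner root sheath cells (4263 CPM) in 1 of 4. The metallothionein genes Mt1 and Mt2, whose products bind zinc and copper, were at 2258 and 1299 CPM over all members and exceeded each of the 3 other groups in 4 of 4 libraries, with at most 987 and 557 CPM in any of them.

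Against other cycling KCs, members were low in genes of the basal epidermis. Krt14, the keratin of basal KCs, was at 312, 312, 761 and 147 CPM in members and between 6485 and 8499 CPM in other cycling KCs, and Krt15 was at 282 against 4206 CPM over all cells. Krt5 and Krt17 stood at 676, 588, 794 and 456 CPM and at 169, 894, 622 and 547 CPM, and Perp, a desmosomal protein, at 743, 950, 887 and 750 CPM. The basal list of 13 genes made up 45.5 of 10000 UMIs in members, 91.3 in non-cycling matrix-marker cells, 242 in other cycling KCs and 46.1 in inner root sheath cells. Among genes picked after their values were seen, the class I antigen presentation genes H2-D1 and B2m were at 164 and 122 CPM in members and at 2523 and 1866 CPM in other cycling KCs. The interferon-induced list was led by Ifitm3 (115 CPM) and Ifi27 (16.3 CPM), with Ifit1, Ifit3, Rsad2 and Oasl2 at 0 UMIs. Suprabasal genes were few, with Krt10 at 86.1 CPM, Krt1 at 34.1 CPM and Dmkn at 27.9 CPM.

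Inner root sheath genes were present in members, well below their level in sheath cells. Krt25 stood at 456, 356, 541 and 379 CPM in members against 4258 to 7198 CPM in inner root sheath cells, and Krt28 and Krt27 at 219 and 104 CPM against 1588 and 1196 CPM. After thinning, Krt25 was found in 53.5% of members, 18.9% of non-cycling matrix-marker cells, 5.05% of other cycling KCs, 89.5% of inner root sheath cells and 2.64% of immune cells. Krt71 was at 34.9 CPM against 4323, Tchh, which encodes trichohyalin, at 84.5 against 3226, and Krt73 at 0.776 against 1330 CPM. The rule caps these genes in members and requires them in inner root sheath cells, so the sizes are set in part by the choice of cells. Of other genes of that layer, Trps1, a transcriptional repressor, and Krt26 were at 100 and 31.8 CPM, and Krt72 was at 0 UMIs.

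Genes of the hair shaft were led by S100a3, a calcium-binding protein of the hair cuticle, at 1291, 112, 100 and 245 CPM. Of its 252 UMIs in PBMCsec 3, 219 lay in 1 cell, and it was detected in 44 members in all. Krtap8-1, a keratin-associated protein, followed at 5.12, 55.9, 59.2 and 56.1 CPM and Lgals1 at 5.12, 41.2, 50.0 and 7.01 CPM. Lgals1, a galectin, was at 1866 CPM in immune cells and had a UMI in 85.0% of them. Of 23 shaft genes, 17 had a UMI in members and 6 had none.

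Members were further split by Krt35 of the shaft and by Krt25 of the sheath. Both were present (Krt25 at 2 UMIs or more) in 33 members, Krt35 alone in 13, Krt25 alone in 39 and neither in 34. The 46 cells with Krt35 had a median of 12453 UMIs and the 73 without it 10738, so depth differed between them. Hoxc13 was at 442 CPM in cells with Krt35 and 185 CPM in those without, and Msx1 at 164 and 101 CPM. In the opposite direction, Gata3 was at 62.4 and 172 CPM and Foxq1, a forkhead factor of the hair medulla, at 86.9 and 243 CPM. Mki67 was nearly even, at 575 and 621 CPM. These contrasts mix cells from several libraries and are descriptions.

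**Figure D3:**
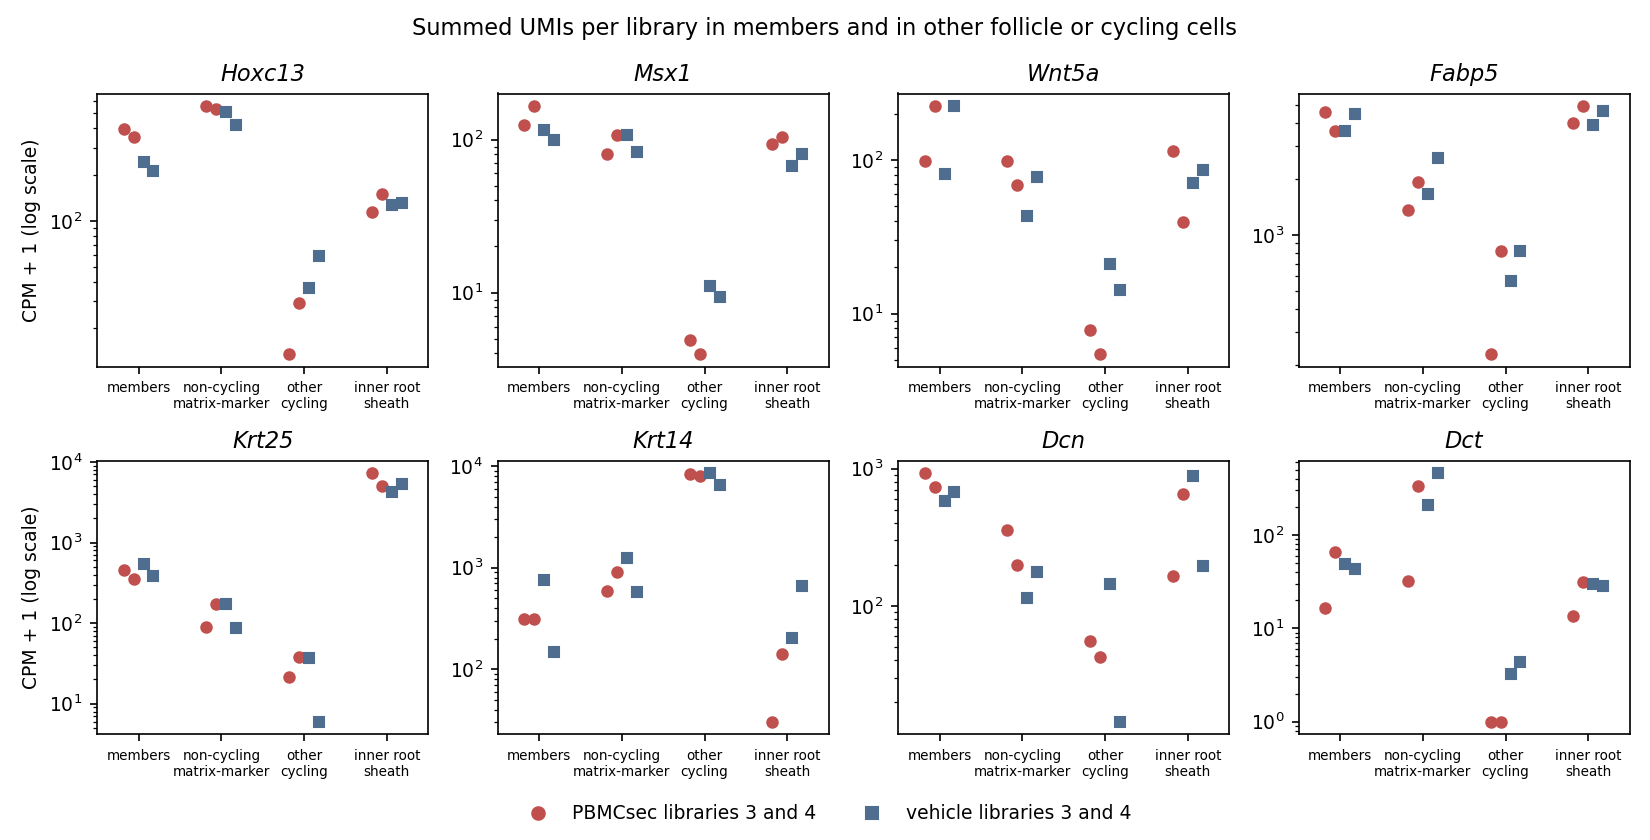
Points show CPM + 1 on a log axis for 8 genes in members, non-cycling matrix-marker cells, other cycling KCs and inner root sheath cells (x axis) of libraries PBMCsec 3, PBMCsec 4 (circles), vehicle 3 and vehicle 4 (squares). Msx1 was highest in members within each library, Krt14 was highest in other cycling KCs and Krt25 in inner root sheath cells.

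Markers of other cell types were looked for because droplets can carry free RNA or a second cell. The fibroblast list made up 7.52 of 10000 UMIs, of which 87.9% came from Dcn, the proteoglycan decorin, at 922, 739, 578 and 680 CPM in members. Dcn was found in 76 members (63.9%), with up to 72 UMIs in a cell, and after thinning in 50.0% of members against 7.70% of immune cells. It exceeded non-cycling matrix-marker cells (183 CPM) and other cycling KCs (63.5 CPM) in 4 of 4 libraries and stood at 589 CPM in inner root sheath cells. Other fibroblast genes did not accompany it: Sparc had 46 UMIs over all members, Col3a1 30, Col1a1 12, Lum 10 and Pdgfra 1, and Corin and Rspo3 had none. Collagen content was limited by the rule.

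Dct, the dopachrome tautomerase of melanocytes, was found in 35 members (29.4%) and in 1.13% of immune cells, at 15.4, 64.7, 48.1 and 42.1 CPM. The other pigment genes were nearly absent, with 4 UMIs of Mlana, 2 of Pmel, 1 of Tyrp1 and none of Sox10 or Tyr. Kit was at 30.3 CPM. Non-cycling matrix-marker cells had 262 CPM of Dct along with 58.6 CPM of Pmel and 60.0 CPM of Tyrp1. The endothelial list came to 27 UMIs, of which Egfl7 gave 25 and Pecam1 and Cldn5 1 each, the mural list to 23 (Notch3 9, Acta2 7, Tagln 7) and the immune list to 29 (Cd74 17, Lyz2 7, Cd52 2). Outer root sheath and bulge genes made up 5.13 of 10000 UMIs, led by Lhx2 (88.4 CPM), Fst (81.4 CPM) and Sfrp1 (64.4 CPM).

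To ask whether PBMCsec changed the members, UMIs were summed per library and tested with edgeR over the 4 libraries with at least 10 members, 2 against 2. The sums were 195241, 339839, 540175 and 142650 UMIs from 17, 30, 50 and 13 cells, and vehicle 4 includes the globin-rich cell. Of 4204 genes tested, 0 passed an adjusted p of 0.05 (0% of genes), and the smallest adjusted p was 0.710 (edgeR, Benjamini-Hochberg). DESeq2 also called 0. At an unadjusted p under 0.05, edgeR had 60 genes lower (1.43%) and 59 higher (1.4%) after PBMCsec, together 2.83% of genes, and DESeq2 8 lower and 12 higher. The genes tested include genes of the rule. Of these, Hist1h1b is among the 60 and Krt35 among the 59, and no conclusion is drawn from either. P-values measure only the spread between these libraries, since the labels do not say whether each is a separate animal. In summed UMIs, a change in the mix of members and a change within each cell cannot be told apart.

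For 24 tested genes outside the rule, the 3 of each of 8 lists with the highest mean TMM-scaled CPM over the 4 libraries of the fit, fold changes were examined one by one. Among the Wnt, BMP and Notch genes this measure took Id3 (mean 285) ahead of Jag1 (mean 270), although Jag1 had more UMIs over all members (322 against 313). Among the 24, Notch1 and Hoxc13 had the smallest unadjusted p-values, while Jag1, outside them, had an unadjusted p of 0.0110 (edgeR). Notch1 had a log2 fold change of 1.07 ± 0.29 (SE) with both PBMCsec libraries above both vehicle libraries (edgeR, unadjusted p = 0.00437, adjusted p = 0.999). Notch1 was called with a replicate block (1.12, adjusted p = 0.0114), without the filter on low counts (1.09, adjusted p = 0.0340) and without PBMCsec 4 (1.38, adjusted p = 0.00532, all edgeR). It was not called by DESeq2 (1.08), with library totals alone (1.07), with all libraries that held a member (1.03), without members holding UMIs of other lineages (0.91), without the globin-rich cell (1.05), without upper limits on genes and UMIs (0.56), or without PBMCsec 3 (0.71), vehicle 3 (1.18) or vehicle 4 (1.01). Hoxc13 had 0.68 ± 0.23 (SE), also without overlap (edgeR, unadjusted p = 0.0158, adjusted p = 0.999). Without members holding UMIs of other lineages the value of Hoxc13 was 1.42 (edgeR, adjusted p = 0.306). That setting kept the 71 members with under 2 UMIs of the melanocyte, endothelial, mural and immune lists together. Fibroblast genes such as Dcn were not counted in it. Over all genes tested, 15.7% lay higher in both PBMCsec libraries than in both vehicle libraries and 14.7% lower in both, so such an order is common in 2 against 2. S100a3 had 2.10 ± 0.91, in a gene for which 1 cell held most UMIs, and without PBMCsec 3 its value was -0.43. It was called without the filter on low counts and without PBMCsec 4, vehicle 3 or vehicle 4. The remaining 21 of these genes lay between -0.71 (Krtap8-1) and 0.41 (Hspa1a), each with an adjusted p of 0.999. Of these, Krt17 (-0.11) was called without PBMCsec 4 (-1.84, edgeR adjusted p = 0.000357) and stood at 0.61 without PBMCsec 3. Krtap8-1 stood at -3.44 without PBMCsec 4 and at -0.04 without PBMCsec 3. The 21 genes also included the heat shock genes Hspa8 at -0.14 ± 0.19 and Hsp90aa1 at -0.06 ± 0.23.

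**Figure D4:**
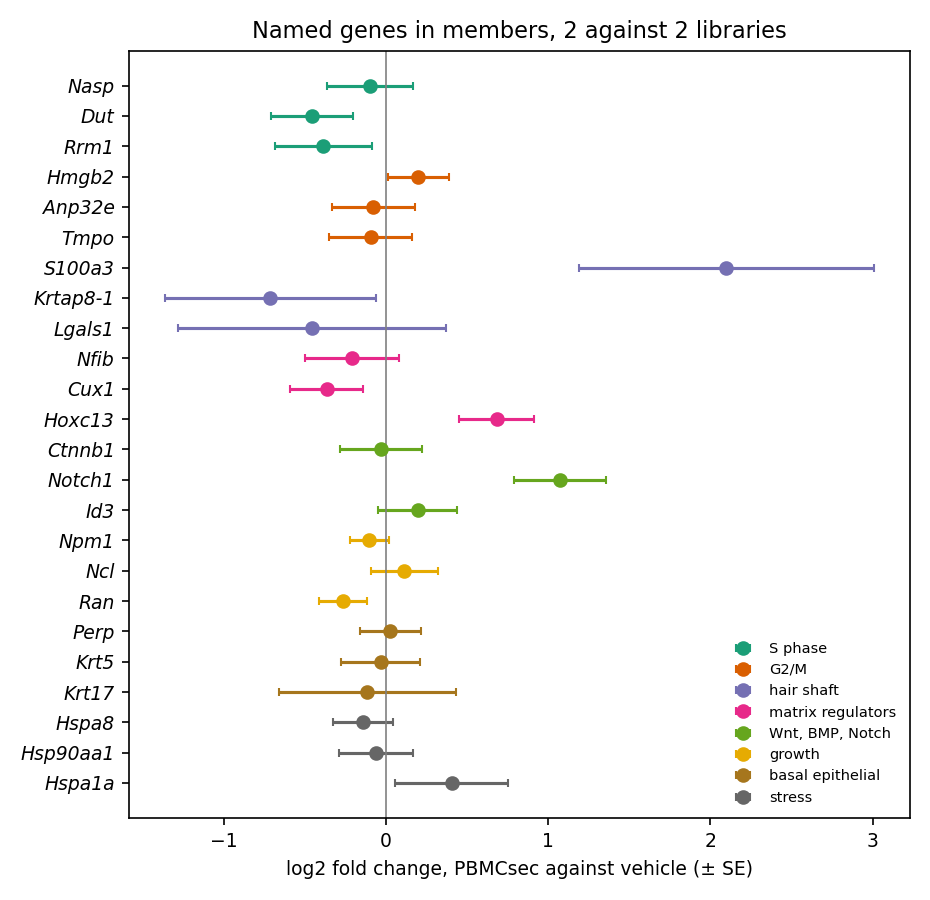
Points show the edgeR log2 fold change between 2 PBMCsec and 2 vehicle libraries (x axis, ± SE) for 24 genes, the 3 of each of 8 lists with the highest mean TMM-scaled CPM over these libraries (y axis), coloured by list. Values above 0 are higher after PBMCsec, and no gene passed the adjusted threshold.

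By list, S-phase genes had 27 of 36 tested values below 0 with a median log2 fold change of -0.23, and G2/M genes 25 of 38 above 0 with a median of 0.11, beside a median of -0.01 over all genes tested, of which 2133 were below and 2071 above 0. In each list none passed the adjusted threshold, and at an unadjusted p under 0.05 only Slbp, the histone mRNA binding protein, was lower among the S-phase genes and none among the G2/M genes. PBMCsec 4, with the highest proportion of G2/M-leaning cells, is 1 of the 2 PBMCsec libraries, and the part of cell cycle position in these values was not tested. Of 14 tested genes of Wnt, BMP and Notch signalling, 9 were above 0 (median 0.31), and Notch1, Jag1, Hes1 and Id2 had an unadjusted p under 0.05. Over all genes tested, 1.4% were higher and 1.43% lower at that limit (edgeR). Jag1 had 0.77 ± 0.24, Hes1 0.85 ± 0.32 and Id2 0.64 ± 0.27, all with an adjusted p of 0.999 (edgeR). Of 16 matrix regulators, 10 were below 0 (median -0.29), with Foxq1 at -0.94 ± 0.34 and Sox21, a factor of the hair cuticle, at 1.80 ± 0.43 (edgeR, both adjusted p = 0.999). Sox21 was called with a replicate block (1.96, adjusted p = 0.000429), without the filter (1.81), without PBMCsec 4 (2.31) and without vehicle 4 (1.92), and Foxq1 without PBMCsec 4 (-1.67). Growth genes had 9 of 15 above 0 (median 0.07), basal genes 10 of 13 below (median -0.18) and stress genes 10 of 17 above (median 0.14).

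Chosen after their values were seen, the 3 genes with the smallest p-values were AC103674.4, an unnamed locus, Rnaset2a, a lysosomal ribonuclease, and Mt4, a metallothionein of stratified epithelium. Their log2 fold changes were 1.56 ± 0.26, 1.90 ± 0.35 and 3.07 ± 0.58, each with an adjusted p of 0.710 (edgeR). All 3 were called with a replicate block and without the filter on low counts. No gene, Sox21 included, was called by DESeq2, with library totals alone or with all libraries that held a member. Nor was any called without members holding UMIs of other lineages, without the globin-rich cell or without upper limits on genes and UMIs. With 1 library left out, AC103674.4 and Mt4 were called whichever of the 4 was missing, and Rnaset2a without PBMCsec 4 or vehicle 4. The log2 fold change of Mt4 was 1.81 without PBMCsec 3 and 3.76 without PBMCsec 4. Without the filter on low counts 24 genes were called and, with a replicate block, 17, whereas leaving out 1 library, so that its group kept 1, gave 20 calls without PBMCsec 3, 33 without PBMCsec 4, 23 without vehicle 3 and 15 without vehicle 4. Krt35 and Hist1h1b, which helped to choose the members, were among the unfiltered calls, and Krt35 was also called with the block. Each was also called in some fits with 1 library left out, and no conclusion is drawn from these calls. The unfiltered calls also included the globin genes Hbb-bs, Hba-a1 and Hba-a2. In vehicle 4, 1 cell held 5248 of 5249, 1722 of 1722 and 1316 of 1316 of their UMIs. These 3 were also among the calls without PBMCsec 3, PBMCsec 4 or vehicle 3, and Hbb-bs among those with the block, so those counts include genes that rest on that cell, whereas none was called without vehicle 4.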

How the data were processed

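For each of 8 libraries (10x Genomics, 3′ ends) the authors deposited UMI counts of 31053 genes in the barcodes that Cell Ranger called, aligned to mm10. The labels and file headers give version 3.0.2, whereas the paper names another. Counts were used as deposited, without Gm42418, Gm17056 and Gm26917, and the study's mitochondrial limit of 5% was relaxed to 10% by the rule. No doublet caller was run. The members and the gene lists were chosen with earlier results of these data known. The rule for named genes gave those of the cell rule and the 3 most abundant of each list. Genes of the cell rule were named for their levels only, although those with enough counts stayed in the fit. For the 24 fold changes of 8 lists, abundance was the mean TMM-scaled CPM over the libraries of the fit, and otherwise the UMIs summed over members. Every other gene named was chosen for its role or its value after values were seen.

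UMIs were summed per library and tested with edgeR 4.0.16 (R 4.3.3, TMM, filterByExpr, quasi-likelihood test, Benjamini-Hochberg) without Col1a1, Col1a2 and Col3a1. DESeq2 1.42.0, other filters and libraries left out were alternatives. The SE of an edgeR fold change was derived from its test, as the absolute log2 fold change divided by the square root of the F statistic. CPM in the text are scaled to the summed UMIs alone. Shares were compared by exact permutation (scipy 1.17.1) and given exact Clopper-Pearson 95% intervals. A count of 0 was given a limit of 3 counts. The fit was tested on simulated data with 200 changed genes. Of 343 listed genes, 341 were found. Gene positions come from GENCODE M21 (GRCm38). Some items are not reported here.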

Additional observations from a re-analysis of the deposited data

How the results depend on the processing

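The difference in the share of members between PBMCsec and vehicle (0.108 percentage points) was -0.204 under a mitochondrial limit of 5% and -0.0758 without an upper limit on genes and UMIs. As a share of epithelial barcodes alone (a UMI of Krt5, Krt14 or Epcam, none of Ptprc and under 1% collagen UMIs) it was 0.457 (means 1.70% and 1.25%, exact permutation p = 0.600), and with cells thinned to 3000 UMIs 0.0518. It ranged from -0.235 (without PBMCsec 4) to 0.435 (without vehicle 3) when 1 library was left out, and no alternative passed the threshold. With the replicate number as a block it stayed 0.108 (exact permutation within numbers, p = 0.875), and in libraries 3 and 4 alone, an alternative chosen after seeing the data, it was 0.0393. The block allows only 16 labellings and libraries 3 and 4 alone only 6. Neither can give a p under 0.05, so no conclusion is drawn from these 2 settings.

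No gene was called under 6 of the alternatives to the fit, including DESeq2. Without the filter on low counts, 24 genes were called, and 15 to 33 when 1 library was left out, where the lone library is assumed to vary like the others. The replicate block called 17. Calls in these settings included genes of the rule. Numbers did not pair the libraries by the labels, and the deviations of same-numbered libraries correlated at 0.16 over 4204 genes. With 2 libraries a group, numbers 3 and 4 give the same value by construction. It is a single contrast and cannot show whether the numbers pair the libraries. The cause of these differences was not tested. Under a mitochondrial limit of 5%, 39 members remained and only 1 library kept 10 of them, and a minimum of 20 members left 1 library a group, so neither fit was run.

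Of 188 fold changes of the 24 genes outside the settings that leave out a library, 23 turned sign, in 17 genes. With all libraries that held a member these were Nasp (0.03), Anp32e (0.10), Nfib (0.14), Perp (-0.27), Hspa8 (0.21) and Hsp90aa1 (0.41). Without members holding 2 UMIs of other lineages they were Anp32e (0.13), Id3 (-0.04), Perp (-0.34) and Krt17 (0.15), and with the block Krt5 (0.02). Without upper limits, an alternative chosen after seeing the data, they were Anp32e (0.13), Tmpo (0.08), Krtap8-1 (0.60), Lgals1 (0.17), Nfib (0.14), Cux1 (0.25), Ctnnb1 (0.07), Npm1 (0.08), Ran (0.07), Perp (-0.30), Krt17 (0.26) and Hspa1a (-0.26). Leaving out 1 library gave ranges that crossed 0 for Anp32e (-0.30 to 0.31), Ctnnb1 (-0.37 to 0.33), Hmgb2 (-0.09 to 0.44), Hsp90aa1 (-0.36 to 0.38), Hspa1a (-0.03 to 1.22), Hspa8 (-0.39 to 0.20), Krt17 (-1.84 to 0.61), Krt5 (-0.31 to 0.39), Lgals1 (-0.85 to 0.16), Nasp (-0.30 to 0.24), Ncl (-0.13 to 0.45), Nfib (-0.62 to 0.14), Perp (-0.20 to 0.22), S100a3 (-0.43 to 2.97) and Tmpo (-0.27 to 0.11). Only Hoxc13, Notch1, Dut and Rrm1 never turned sign.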
